A study of Caenorhabditis elegans with 2 samples.

Results

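The 3 chromatin genes zfp-1, bet-2 and tasp-1 hold the strongest promoter summits of tagged PROS-1, and they were chosen by the pooled signal value, so the height of those summits is a description and not a finding. They are 3 of 19973 annotated protein-coding genes, and bet-1, the paralog of bet-2, was added for comparison. The 4 genes with 5000 bp to each side held 8 of the 737 peaks in the authors' list thresholded by irreproducible discovery rate (IDR, a measure of agreement between replicates), called IDR peaks here. They also held 23 weaker regions from the same pooled list, called candidates, which the authors kept with background for the IDR step.

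The assay was chromatin immunoprecipitation with sequencing (ChIP-seq) of eGFP-PROS-1, a fluorescently tagged form of the Prospero-family homeodomain protein, in *Caenorhabditis elegans*. There was 1 group of 2 biological replicates, both of whole late embryos of both sexes from strain OP500, which carries unc-119(tm4063) III and the transgene wgIs500. The labels give the age as unknown and name a possible control experiment, and no group of untagged worms was analysed here. The replicates are numbered as biological replicates, but nothing says how separately the embryos were grown. The tagged protein comes from an inserted transgene, and its level beside native PROS-1 was not measured here. Whole embryos mix all cell types, so the peaks cannot be assigned to a tissue, and peak lists hold no expression values with which to check the stage or cell types. The files analysed here give positions and strengths without read totals, so the depth is unknown. P-values were not computed, since the genes were selected on the same lists and only 1 group exists.

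ZFP-1 is the worm homolog of mammalian AF10, a PHD-finger protein that works with the H3K79 methyltransferase DOT1. BET-1 and BET-2 belong to the BET family, whose paired bromodomains read acetylated histones, and BET-1 is known in worms for keeping cell fates stable. TASP-1 is the homolog of mammalian taspase, a threonine protease that in mammals cuts MLL-type H3K4 methyltransferases and the general transcription factor TFIIA. PROS-1 itself belongs to the family of fly Prospero and vertebrate PROX1, homeodomain proteins known for their roles in neural and glial development.

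The bases at the summits are shown because the selection by signal value did not use them, and they are where the peaks of 1 gene can be compared with each other. Each line gives the plus strand of WBcel235 (the ce11 assembly, from RefSeq), which is the coding strand of zfp-1, bet-2 and tasp-1, with 50 bp to each side of the summit. Capitals mark every GAGA or TCTC tetramer, a mark chosen after the sequences were seen. The first 4 lines are the IDR summits inside zfp-1 in order along the gene, the next is that at the tasp-1 start, and the last 2 lie on the 2 sides of bet-2.
zfp-1, chrIII:8794902-8795002: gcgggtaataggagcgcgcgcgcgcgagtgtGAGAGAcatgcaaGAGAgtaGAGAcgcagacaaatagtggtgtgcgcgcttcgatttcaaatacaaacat
zfp-1, chrIII:8795902-8796002: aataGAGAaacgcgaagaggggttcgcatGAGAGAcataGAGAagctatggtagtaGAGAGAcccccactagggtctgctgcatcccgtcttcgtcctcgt
zfp-1, chrIII:8800148-8800248: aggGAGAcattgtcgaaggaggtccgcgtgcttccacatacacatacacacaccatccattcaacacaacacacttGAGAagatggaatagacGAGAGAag
zfp-1, chrIII:8802089-8802189: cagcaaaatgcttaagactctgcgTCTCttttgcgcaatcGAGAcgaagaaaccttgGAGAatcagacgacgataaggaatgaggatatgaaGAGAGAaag
tasp-1, chrIII:10759202-10759302: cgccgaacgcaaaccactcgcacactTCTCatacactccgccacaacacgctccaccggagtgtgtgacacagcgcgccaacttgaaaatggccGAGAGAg
bet-2 upstream, chrX:10568649-10568749: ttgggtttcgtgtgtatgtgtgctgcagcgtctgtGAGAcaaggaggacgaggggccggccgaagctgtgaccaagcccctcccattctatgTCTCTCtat
bet-2 downstream, chrX:10576569-10576669: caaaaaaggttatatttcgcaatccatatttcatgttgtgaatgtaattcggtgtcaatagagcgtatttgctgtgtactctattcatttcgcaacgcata

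PROS-1 peaks at zfp-1 lay inside the gene, in its long introns, and not at its first start. The gene (WBGene00006975, III, 8791535 to 8806305, plus strand) spans 14771 bp and has 11 annotated transcripts with 10 distinct starts. All 4 of its IDR summits fell in introns, in 2 pairs. The first pair, at 8794952 and 8795952, lay 1000 bp apart in an intron of 4254 bp that ends directly before the start of transcript F54F2.2a.1. The second pair, at 8800198 and 8802139, lay 1941 bp apart in an intron of 3179 bp that ends at 8802824, 5 bp past the start of F54F2.2c.2 at 8802819.

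The transcripts that begin beyond the first pair differ in what they encode, and of these only F54F2.2c.2 also begins beyond the second pair. F54F2.2a.1 starts 6863 bp into the gene and encodes 867 residues, the same length as the transcripts that begin at the gene's first start. F54F2.2c.1 and F54F2.2c.2 start 7998 and 11284 bp into the gene and encode 635 residues. The strongest summit lay 680 bp upstream of F54F2.2c.2 and 2606 bp downstream of F54F2.2c.1, so that it was a promoter summit (one from 1000 bp before to 200 bp after the start of any protein-coding transcript) only at this internal start. A candidate outside the IDR list, at 8798584, had its summit 186 bp downstream of the F54F2.2a.1 start with a signal value of 13.98 (rank 3332). The other 3 summits lay in no promoter window. They were 543 and 1543 bp downstream of F54F2.2a.7 and, for the third, 503 bp downstream of the start of F54F2.6, a gene on the opposite strand within zfp-1.

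The authors' signal value, a score whose scale is not stated, was 127.1 at the strongest zfp-1 summit, rank 1 of the pooled list. The upstream pair had 60.97 (rank 91) and 73.3 (rank 50), and the third had 50.6 (rank 151). All 4 were above the IDR list's median of 36.4, and the lowest IDR peak had 26.4. The other 12 candidates in the zfp-1 interval ran from 5.87 to 21.6 with a median of 9.77, against 8.05 over all 30000 pooled candidates. The highest of them, 21.6 at rank 1131, lay 531 bp from the strongest summit.

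Holding several IDR peaks is uncommon among genes. In the whole annotation 189 protein-coding genes held at least 1 IDR summit within the gene, 21 held at least 2, and only zfp-1 and pqn-41 held 4. A longer gene has more room for summits, so length was looked at beside these counts. Of the 423 genes at least as long as zfp-1, 47 held at least 1 IDR summit and 2 held 4. The gene pqn-41, named after the counts were seen, spans 33613 bp. Since zfp-1 was chosen for 1 of its 4 summits, its place in these counts is a description only. The number also differed between replicates. Among as many top candidates as there are IDR peaks, the zfp-1 interval held 3 summits in replicate 1 and 5 in replicate 2. For the whole annotation such counts were not computed by replicate.

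**Figure D1:**
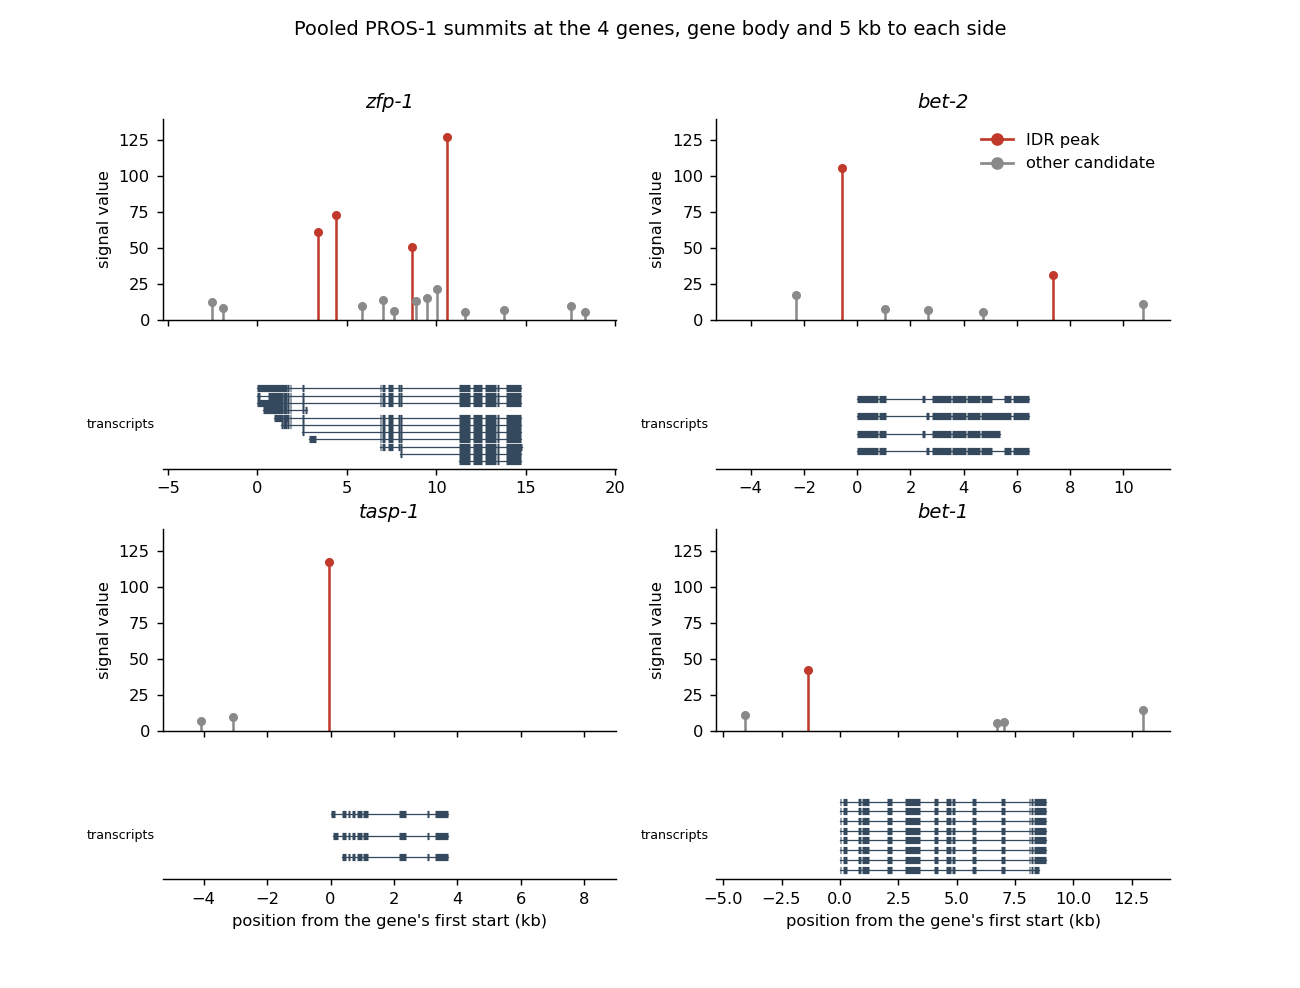
Pooled signal value (vertical axis) of every candidate summit against its position in kb from the first start of each gene, in the gene's direction, with annotated transcripts below (boxes are exons). Red points are IDR peaks and grey points other candidates. The 4 IDR summits of zfp-1 sit in its long introns, those of bet-2 on its 2 flanks, that of tasp-1 at the start, and that of bet-1 1345 bp upstream.

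At bet-2 both IDR summits lay outside the gene, one before it and one after it. The gene (WBGene00010199, X, 10569273 to 10575725, plus strand) has 4 transcripts that share 1 start and encode 1087 or 1209 residues. The stronger peak (X, 10568520 to 10568824) had its summit 574 bp upstream of that start, with a signal value of 105.7 and rank 5. The weaker peak (X, 10576457 to 10576780) had 31.8 and rank 510, and its summit lay 334 bp upstream of nhx-5, a sodium/proton exchanger gene, so it fell in the nhx-5 promoter window and in none of bet-2. Between them, 3 candidates within bet-2 had signal values of at most 7.88.

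At tasp-1 the region held a single IDR peak, close to the start. The gene (WBGene00010480, III, 10759307 to 10763021, plus strand) has 3 transcripts with 3 starts, and each encodes 331 residues. The summit of the peak (III, 10759164 to 10759327, signal value 117.4, rank 3) lay 55 bp upstream of the first of these starts. It also fell in the window of K01G5.10, which is transcribed in the opposite direction. Within 5000 bp the other pooled candidates had signal values of 10.1 and 7.04, at ranks 8457 and 19842. The stronger lay in rnf-113 and also in the promoter window of hpl-2, and the weaker lay within hpl-2. The hpl-2 gene encodes a heterochromatin protein of the HP1 family. From the tasp-1 peak the nearest other IDR peak was 38900 bp away. Of all 737 IDR peaks, 132 (17.9%) had another within 5000 bp.

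The paralog bet-1 had 1 IDR peak in its interval, and its signal value lay between those of the 2 peaks beside bet-2. The gene (WBGene00022473, I, 4525961 to 4534805, minus strand) has 8 transcripts whose starts lie within 7 bp of each other. The peak (I, 4535988 to 4536311) had a signal value of 42.1 and rank 264. Its summit lay 1345 bp upstream of the nearest start, that of bet-1, and so outside the 1000 bp window. With a window of 2000 bp upstream to 500 bp downstream, bet-1 counted as having a promoter summit. Within the gene itself the pooled list had 2 candidates, with signal values of 6.35 and 5.63.

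The counts of genes stand against the whole annotation as follows. All 4 genes had an IDR summit within the gene or 5000 bp of it, as did 8.74% of protein-coding genes, and 3 of the 4 had one in the promoter window, as did 2.55%. Since the 3 genes were selected on these peaks, nothing is read from their count. The window matters for all but tasp-1, because with 500 bp upstream to 100 bp downstream only tasp-1 of the 4 still had a promoter summit. The next promoter peaks below the threshold set by the choice of 3 genes were close in height. W06H8.6 had 105.5 (rank 7), and a peak shared by K06H7.7 with grp-1 had 102.7 (rank 10), against 105.7 at bet-2.

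The strongest summits were also called as narrow regions. In the IDR list 693 peaks had the full width of 324 bp, and the 44 narrower ones included 30 of the 50 strongest. The peak of tasp-1 was 164 bp wide, the strongest of zfp-1 180 bp, its peak at 8795952 110 bp, and the upstream peak of bet-2 305 bp. The other 4 IDR peaks at these genes, bet-1 included, had the full width. In replicate 1 no candidate was narrower than 330 bp.

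The replicates were compared by rank within each list, because signal values of separate lists are not on one scale. Summits within 100 bp were taken as the same. Of the 8 IDR summits at the 4 genes, 6 had a candidate summit of both replicates within that distance, against 82.4% of all IDR peaks. The pooled list contains the reads of both replicates, so this is a description of the overlap and no independent check.

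The strongest zfp-1 summit was near the top of both replicates. In replicate 1 it had a signal value of 30.5, rank 4, which is 84.6% of that list's highest value of 36.0. In replicate 2 it had 99.0, rank 2, or 82.2% of the highest value of 120.5. The summits lay 17 and 22 bp from the pooled summit. Of the 3 chosen promoter peaks it was the only one within the 10 strongest of both replicates.

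The upstream pair in zfp-1 was called as 2 summits in replicate 2 and as 1 in replicate 1. Replicate 2 placed summits 34 and 3 bp from the pooled ones, with signal values of 55.6 (rank 56) and 67.5 (rank 25). The summit of replicate 1, at 8795815, had 14.5 (rank 150) and lay 137 bp from the second and 863 bp from the first. Neither summit of the pair thus had a candidate summit of replicate 1 within 100 bp, and these are the 2 of the 8 without a match in both replicates. Of the 100 strongest IDR peaks 9 had no replicate 1 summit within 100 bp, and 1 had none of replicate 2.

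The third zfp-1 summit, at 8800198, was found by both replicates, at rank 574 in replicate 1 (signal value 9.58) and rank 168 in replicate 2 (39.6). Replicate 2 split it, with a further candidate at 8800382 of 30.1 (rank 327). The lists gave zfp-1 similar numbers of candidates, 16 pooled and 14 in each replicate.

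**Figure D2:**
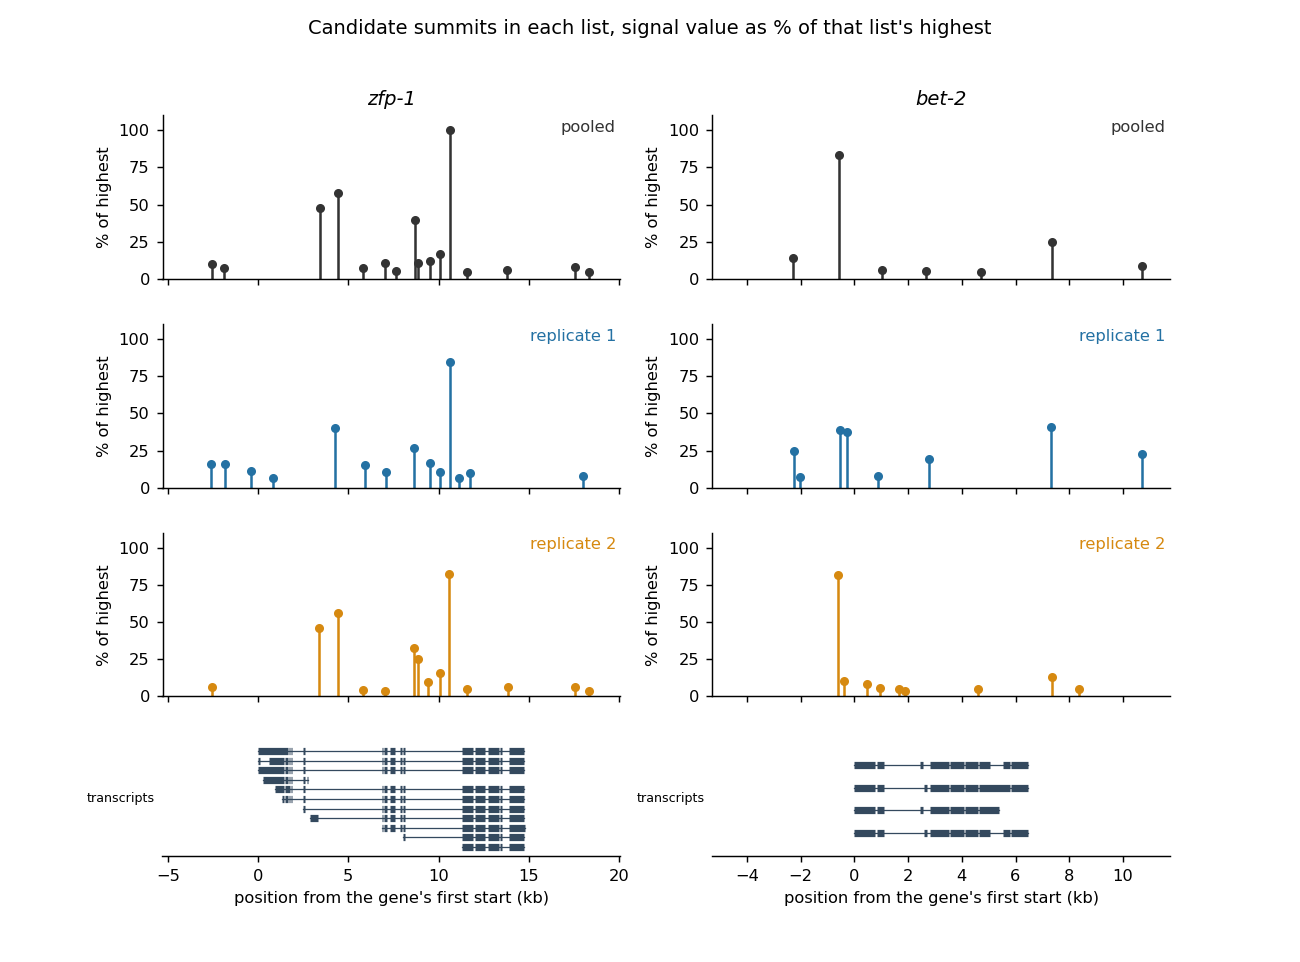
Signal value as a percentage of the highest value in the same list (vertical axis) for all candidate summits at zfp-1 (left) and bet-2 (right), in the pooled list and in each replicate, against position in kb from the first start. Boxes below are exons of annotated transcripts. The strongest zfp-1 summit stands at 84.6% in replicate 1 and 82.2% in replicate 2, whereas the upstream bet-2 summit stands at 38.7% and 81.7%.

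The 2 peaks beside bet-2 stood in opposite order in the replicates, but in replicate 1 they were nearly level. Replicate 1 gave the upstream summit 13.95 (rank 170) and the one before nhx-5 14.6 (rank 146). Replicate 2 gave the upstream summit 98.4 (rank 3) and the one before nhx-5 15.6 (rank 1354). In replicate 1 the signal upstream of bet-2 was called as 2 candidates 238 bp apart, the second at 10568988 with 13.6 (rank 185). In replicate 2 the second candidate there, at 10568873, had 12.5 (rank 2432).

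Among the 607 IDR peaks matched in both replicates, the ratio of the replicate 1 rank to the replicate 2 rank had a median of 1.51. The ratio was 56.7 at the upstream bet-2 summit, and 23 of the 607 (3.79%) had one at least as high. Since bet-2 was chosen by pooled signal value and the 607 were not, this share is a description only. It also leaves out the IDR peaks without a ratio. These were 122 with no replicate 1 summit within 100 bp and 9 with none of replicate 2. At the nhx-5 side the ratio was 0.108, and 95.2% had a higher or equal one. The high place of bet-2 was thus seen in replicate 2, and replicate 1 alone put its summit at rank 170.

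The tasp-1 summit was at rank 34 in replicate 1, with a signal value of 21.5, and at rank 4 in replicate 2, with 97.9. These are 59.6% and 81.3% of the lists' highest values, and the summits lay 7 and 1 bp from the pooled one. The replicates differed in weak candidates around it, with 8 in the interval for replicate 1 and 3 for replicate 2. The bet-1 summit stood at nearly the same rank in both, 298 in replicate 1 (signal value 11.6) and 310 in replicate 2 (30.8).

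**Figure D3:**
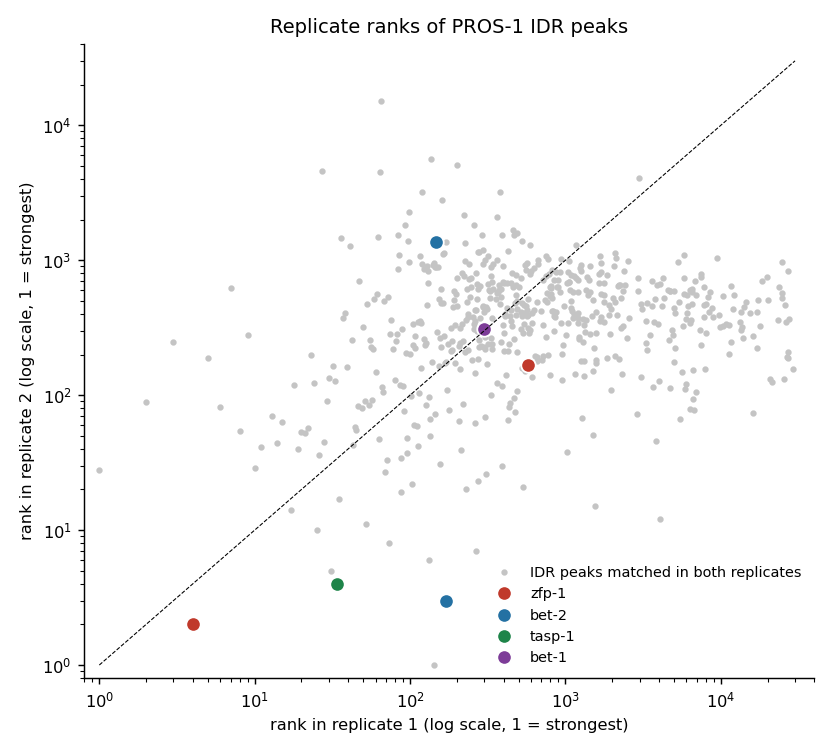
Rank in replicate 1 (horizontal axis) against rank in replicate 2 (vertical axis), both on log scales with 1 as the strongest, for the 607 IDR peaks matched in both (grey) and the 6 matched summits at the 4 genes (coloured). The dashed line marks equal ranks. The zfp-1 summit at ranks 4 and 2 lies in the lower left corner, and the 2 bet-2 summits lie on opposite sides of the line.

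The promoter peaks with replicate ranks most like those of the 3 genes were found by the sum of absolute log2 rank differences over the 2 replicates. For bet-2 the nearest was sms-2, a sphingomyelin synthase gene, with ranks 133 and 6 and a distance of 1.35, followed by W06H8.6 with ranks 73 and 8 (2.63) and by the tasp-1 peak (2.74). For tasp-1 the nearest was the linker histone gene hil-7, with ranks 52 and 11 and a distance of 2.07, and then W06H8.6 (2.10) and serp-1.1 (2.13). For zfp-1 no peak was that near. The closest was the tasp-1 peak at 4.09, followed by that of iff-2, an initiation factor 5A gene, and F54C9.14, with ranks 8 and 54 (5.75), and that of K06H7.7 and grp-1, with ranks 1 and 28 (5.81). On a log2 scale the first ranks of a list lie far apart, and the zfp-1 peak was chosen for its height. Its larger distances are therefore a description only.

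The summits of the 4 genes had no common motif among the 6 searched. The search covered both strands within 50 bp of each summit. It looked for the repeat GAGAGAG, the GC box GGGCGG, the homeodomain core TAATTA and the tRNA gene B box GTTCNANNC. It also looked for AAGACG, which like AAGGCG is a form of the site attributed to the Prospero and PROX1 family. GAGAGAG occurred at 1 of the 8 summits, that of tasp-1, and at 17.9% of all IDR summits (exact 95% interval 15.2% to 20.9%). AAGACG occurred at 1 of the 8, the zfp-1 summit at 8795952, and at 7.06% of all IDR summits. The other 4 motifs occurred at none of the 8, and at 8.41% (GGGCGG), 5.70% (AAGGCG), 1.09% (TAATTA) and 4.61% (GTTCNANNC) of all IDR summits. Among the 29263 pooled candidates outside the IDR list the shares were lower for GAGAGAG (3.90%), GGGCGG (3.19%), AAGACG (4.55%), AAGGCG (3.17%) and GTTCNANNC (3.54%), and higher for TAATTA (3.31%). Among as many top candidates of replicate 1 alone as there are IDR peaks, GGGCGG was at 4.48% and TAATTA at 2.17%.

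Shorter GAGA runs varied widely among the 8 summits. Within 150 bp of the summit, GAGA or TCTC started at 6, 11, 15 and 15 places at the 4 zfp-1 summits in order along the gene. All IDR summits had a median of 7, and other candidates a median of 3. The bet-1 summit had 25, a count reached by 2.31% of IDR summits. The upstream bet-2 and tasp-1 summits had 5 each, and the summit before nhx-5 had 1. Overlapping tetramers were counted separately, and this count was chosen after the sequences were seen.

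GC content within 50 bp of the summit ran from 34.7% at the nhx-5 side of bet-2 to 58.4% at tasp-1, against a median of 52.5% over IDR summits and 40.6% over other candidates. The strongest zfp-1 summit, at 43.6%, was AT-rich for the list, and 91.3% of IDR summits were at or above it. The upstream bet-2 summit had 56.4%, that of bet-1 53.5%, and the remaining zfp-1 summits 52.5%, 52.5% and 47.5%. None of the 8 peak regions held a 31-base word that occurs more than once on the 6 nuclear chromosomes, which was also true of 89.1% of all IDR peaks. No tRNA, snoRNA or other non-coding gene lay within 1000 bp of any of the 8 summits, the nearest being an ncRNA gene 1221 bp from the zfp-1 summit at 8795952.

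**Figure D4:**
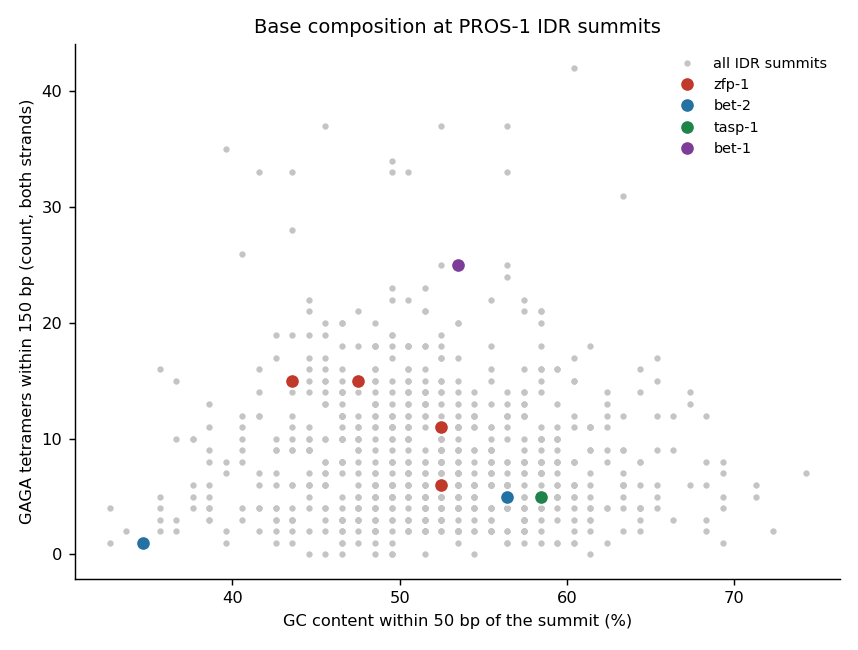
GC content in % within 50 bp of each IDR summit (horizontal axis) against the number of GAGA or TCTC tetramers within 150 bp (vertical axis), for all 737 IDR summits (grey) and the 8 at the 4 genes (coloured). The bet-1 summit stands at 25 tetramers, the strongest zfp-1 summit at 15 with 43.6% GC, and the downstream bet-2 summit at 1 with 34.7% GC.

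Other chromatin genes, grouped by domain or protein class, were described from 4 short lists, and a working link to these 4 proteins was not tested. IDR summits lay in the promoter windows of 5 of the 27 annotated genes, against 2.55% of all protein-coding genes, and the lists were drawn up with earlier results of these data known. The bromodomain list, other than the BET genes, had 4 of 9. The peak of cbp-1, which encodes the CBP/p300 histone acetyltransferase, lay 854 bp upstream of the nearest cbp-1 start (III, 9765493 to 9765816, signal value 69.6), with ranks 135 in replicate 1 and 50 in replicate 2. That of pbrm-1, a SWI/SNF subunit gene, lay 793 bp upstream of an internal start (63.2, ranks 145 and 72). That of nurf-1, a subunit of the NURF remodeller, lay 95 bp upstream of an internal start (56.7, ranks 442 and 87), and that of swsn-4, the SWI/SNF ATPase, 604 bp upstream (34.3, ranks 760 and 572). The swsn-4 peak is shared with the promoter window of spo-11.

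The list of COMPASS and TFIIA genes, whose mammalian counterparts include the substrates of taspase, had 1 of 10. It was set-16, an MLL-type methyltransferase gene, with a summit 171 bp upstream (III, 13643583 to 13643906, signal value 53.8, ranks 195 and 172). The same peak lies in the promoter window of drr-2. The set-2 gene, which encodes the SET1-type H3K4 methyltransferase, had at most 12.7 (rank 4379), and pqn-51, which encodes a TFIIA subunit, 14.8 (rank 2813).

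The H3K79 methyltransferase list had 0 of 5. The strongest promoter candidate of dot-1.1, whose product forms a complex with ZFP-1, had 13.1 (rank 3973), and dot-1.2, dot-1.3, dot-1.4 and dot-1.5 had no candidate in their windows. The list of MYST acetyltransferase and H2A.Z genes had 0 of 3 in the IDR list, with 21.96 at htz-1 (rank 1093), 7.51 at mys-1 (rank 17503) and no candidate at mys-2. Over the 4 lists, 19 of 27 genes had a pooled candidate in the window, with a median rank of 2813 for the strongest. With as many top candidates of replicate 1 in place of the IDR list, 7 of the 27 had a promoter summit, since htz-1, ash-2 and pcaf-1 were gained and swsn-4 was lost. Over all protein-coding genes 41.9% had a pooled candidate in the window, with a median rank of 11116 for the strongest. This share is the background for the 19 of 27 and not for the 7 of 27. For the 7 of 27 the share of all protein-coding genes was not computed, so the count is not read as a gain.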

How the data were processed

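The deposited lists are ENCODE peak files with a summit per region, namely candidates with background from 2 replicates and from their pool, and 1 IDR-thresholded list, per the file names. Peak caller, aligner, use of the control and IDR threshold are not given in the sources used here. The authors' signal value is a score of unstated scale and served to rank peaks inside 1 list. The deposited -log10 q-value column was used as an alternative ranking, but 639 pooled candidates share its highest value, so it cannot separate the strongest peaks. The lists in ce10 were not used here. Read totals were not used, and depth is unknown.

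Summits in ce11 were placed on Ensembl release 115 gene models (WBcel235), with sequence from RefSeq. Named genes were the 4 genes, the neighbours of their IDR summits and the next 2 promoter peaks. The 3 peaks nearest in replicate ranks to each of the 3 chosen peaks were also named. So were list members with a promoter summit and up to 3 of each list without. In the H3K79 methyltransferase list every member was named. Outside these rules were pqn-41, the genes that hold weaker candidates at tasp-1, and genes that share a listed gene's promoter peak. Of the listed names flt-1 was not matched, which left 27. The members and lists were chosen with earlier results of these data known. Intervals are exact binomial and cover counting only. The window, flank, matching and motif functions were checked on simulated data. Alternatives were flank, window, distance, list and replicate. Software was matplotlib 3.10.9, scipy 1.17.1, pandas 2.3.3 and numpy 2.4.6 under Python 3.11.15.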

Additional observations from a re-analysis of the deposited data

How the results depend on the processing

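The 8 IDR summits at the 4 genes were also 8 with flanks of 2000 and 10000 bp, 7 among the IDR peaks at or above the median signal value, and 8 and 9 among as many top candidates of replicate 2 and of replicate 1. The 6 shared with both replicates became 4 at 50 bp, and 7 at 200 bp or by an overlap of 1 bp. Without either replicate the rank ran from 2 to 4 at zfp-1, 4 to 34 at tasp-1 and 3 to 170 at bet-2, the higher number being replicate 1 alone. The significance column tied all 3 at rank 1, a value shared by 639 pooled candidates, so it could not separate them. The 5 listed chromatin genes with a promoter summit became 2, nurf-1 and set-16, with the window of 500 to 100 bp, 4 in the stronger part of the list (without swsn-4), and 5 and 7 with the top candidates of replicate 2 and of replicate 1. The share of all protein-coding genes with a promoter summit was not computed under these windows and lists. The changed counts are therefore not read as results about the listed genes. The background of 1745 genes with an IDR summit within 5000 bp became 1024 with 2000 bp and 2853 with 10000 bp. Of 24 recomputed motif shares 14 left the interval of the main value, most of them with 25 or 100 bp to each side of the summit. With the top candidates of replicate 1, GAGAGAG went from 17.9% to 13.8%, GGGCGG from 8.41% to 4.48% and TAATTA from 1.09% to 2.17%; with those of replicate 2 no share left its interval. No paired analysis was possible because there is 1 group. Depth is unknown, so no counting error could be given for any signal value.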
